A study of Homo sapiens with 64 samples.

Results

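The genes described here build ribosomes. The set is a list of 52 genes that encode subunits of RNA polymerase I and III, ribosomal RNA processing factors and other nucleolar proteins, and each gene was read through 1 probe, the one with the highest mean signal on the 42 time-course arrays. A probe with a single gene symbol was found for 48 of the 52. WDR43, EBNA1BP2, DDX18 and GNL3 had none in the probe table used here, and the probe of NPM1 was at background on all arrays, with a highest signal of 119.6 in the time course and 125 in the panel. The other 47 members were tested among 13393 genes. By role, 5 of 5 listed members of the polymerases, 7 of 7 core proteins of small nucleolar ribonucleoproteins (snoRNPs), 16 of 17 small subunit factors, 13 of 15 large subunit factors and 6 of 8 nucleolar organisers, RNase P/MRP proteins and coactivators were tested.

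RNA of human lymphoma lines grown in vitro was measured on 64 Illumina arrays. SUDHL2, a line of the activated B-cell type, and SUDHL6, a line of the germinal centre type, were each profiled with OTX015 for 1, 2 or 12 h, with DMSO for 1, 2 or 12 h, and not treated, which gave 14 groups of 3 arrays. OTX015 is a small molecule that blocks the acetyl-lysine pocket of the BET bromodomain proteins, and DMSO is its solvent. Its dose was not given in the sources used here. No group carries a genetic change beyond those of the line itself. A panel of 22 lymphoma lines, 1 array each and among them SU-DHL-2 and SU-DHL-6, gave basal levels.

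Ribosome assembly starts in the nucleolus, where RNA polymerase I transcribes the large precursor of the ribosomal RNAs and RNA polymerase III supplies the small ribosomal RNA and the transfer RNAs. Guide snoRNPs modify the precursor, a large processome cleaves and folds it, and separate sets of factors then carry the small and the large subunit to the cytoplasm. The pathway is a main cost of growth, and MYC, a transcription factor that is often deregulated in B-cell lymphoma, binds the promoters of many of its genes through the sequence CACGTG together with its partner MAX.

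Replicate arrays correlated at 0.982 to 0.995 over genes, and the median raw signal per array was 88.5 to 115 in the time course and 88.3 to 118 in the panel. Of the B-cell markers, CD79A, CD79B, MS4A1, CD22 and CD74 were detected on 21 of 21 arrays of both lines. PAX5 was not detected on 3 or more arrays. SUDHL2 also gave signal for EPCAM on 21 arrays and for CD3D on 18, while SUDHL6 gave it on 0 arrays for both genes. CD2 was detected on 8 SUDHL2 arrays and 1 SUDHL6 array, and DCN on 17 and 1. None of CD3E, CD3G, CD7, CD8A, NKG7, GNLY, KLRD1, KRT8, KRT18, KRT19, COL1A2, COL3A1 and LUM was detected on 3 or more arrays. The myeloid markers FCGR3A and CD68 were detected on 21 arrays of each line, CD14 on 20 and 12 and LYZ on 15 and 11. CSF1R, S100A9 and CD163 did not reach 3 arrays. The summed signal of the measured B-cell markers at 12 h was 7723 to 8035 in SUDHL2 with OTX015 and 5478 to 6534 with DMSO, and 16872 to 18871 in SUDHL6 with OTX015 and 20490 to 22222 with DMSO. The summed signal of 6 measured myeloid markers was 1046 to 1178 in SUDHL2 with OTX015 and 595.2 to 824.4 with DMSO, and 1170 to 1482 in SUDHL6 with OTX015 and 1138 to 1196 with DMSO. The 2 measured T and NK cell markers summed to 61.7 to 68.0 in SUDHL2 with OTX015 and 93.2 to 105.3 with DMSO, and to 47.9 to 54.7 in SUDHL6 with OTX015 and 49.7 to 55.4 with DMSO. The 3 measured stromal and epithelial markers summed to 138 to 145 in SUDHL2 with OTX015 and 264 to 319 with DMSO, and to 94.6 to 99.7 in SUDHL6 with OTX015 and 96.02 to 107 with DMSO. Whether these shifts have a part in the results below was not tested. In such bulk samples, fewer cells of a kind and less RNA per cell cannot be told apart.

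The promoters of the members were read first, as a description. RefSeq windows running from 250 bases before to 50 after a gene's start were available for 39 of the 47 tested members. RRS1, POLR3G, URB2, NOLC1, RRP12, BOP1, NOP58 and MPHOSPH10 had no window and are left out of each comparison of promoters. The hexamer CACGTG, which reads the same on both strands, occurred in 17 of these 39 (43.6%), in 34 of 131 other ribosome biogenesis genes (26.0%) and in 12.3% of 10549 tested genes with a window. CCGGAAGT, the core bound by ETS factors, was in 25.6% of the members and 9.13% of the tested genes on either strand, the motif of NRF1 in 7.69% and 2.54%, and TATAAA in 2.56% and 9.82%. Of 23 CACGTG copies in the 20 listed members that hold one, 13 (56.5%) lay after the start, where 16.7% of the window lies. Among 1565 copies in all tested genes, 10.2% did. A match describes letters in a window and is no measured binding site.

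The sites below are shown because these 8 members carry the hexamer and are among those whose signal is described in full. Each line gives 30 bases of the gene's own strand, 5′ to 3′, from RefSeq on build GRCh38.p14, with CACGTG in capitals.
DDX21: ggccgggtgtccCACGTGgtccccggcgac
GAR1: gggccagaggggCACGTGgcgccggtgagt
RRP9: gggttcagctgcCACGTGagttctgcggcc
MRTO4: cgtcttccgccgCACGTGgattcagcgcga
BYSL: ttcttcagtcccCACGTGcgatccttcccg
RCL1: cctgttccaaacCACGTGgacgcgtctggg
PES1: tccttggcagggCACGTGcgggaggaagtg
NOP10: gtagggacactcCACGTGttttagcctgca
They lie at chr10:68956604-68956633 (+) for DDX21, chr4:109815781-109815810 (+) for GAR1, chr3:51941892-51941921 (-) for RRP9, chr1:19251807-19251836 (+) for MRTO4, chr6:41921515-41921544 (+) for BYSL, chr9:4792936-4792965 (+) for RCL1, chr22:30591880-30591909 (-) for PES1 and chr15:34343289-34343318 (-) for NOP10. Counted from the gene's start, the hexamer begins at -31 in DDX21, -5 in RRP9 and -170 in NOP10, and at 32 in GAR1, 15 in MRTO4, 29 in BYSL, 5 in RCL1 and 14 in PES1.

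The 250 bases before the start are shown for DDX21 and for WDR74, the single member that rose. DDX21 was chosen for the largest fall in SUDHL2 among fully described members with CACGTG before the start. Its copy of the hexamer thus follows from the choice and is no contrast with WDR74. DDX21 lies at chr10:68956397-68956646 (+) with 1 copy of CACGTG in capitals, and WDR74 at chr11:62839591-62839840 (-) with 0 copies.
DDX21: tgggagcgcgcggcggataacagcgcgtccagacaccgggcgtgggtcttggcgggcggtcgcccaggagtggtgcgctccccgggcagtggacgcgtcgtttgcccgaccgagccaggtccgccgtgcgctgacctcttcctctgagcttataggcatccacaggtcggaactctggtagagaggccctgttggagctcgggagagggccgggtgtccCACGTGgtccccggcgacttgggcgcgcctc
WDR74: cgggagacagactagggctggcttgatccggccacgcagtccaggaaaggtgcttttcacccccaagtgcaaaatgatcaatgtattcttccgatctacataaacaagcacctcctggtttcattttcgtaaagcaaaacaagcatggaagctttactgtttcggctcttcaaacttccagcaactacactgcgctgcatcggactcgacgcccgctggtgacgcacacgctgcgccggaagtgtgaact

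At 12 h with OTX015, most of the ribosome biogenesis genes fell in both lines relative to DMSO at the same hour. In SUDHL2, 43 of 47 members were lower and 1, WDR74, was higher, with a median log2 fold change of -0.94 and a range of -2.38 to 0.78. In SUDHL6, 34 of 47 were lower and none was higher, with a median of -0.57 and a range of -1.44 to 0.22. A log2 value of -1 is a 2-fold lower signal. Each log2 fold change below is given ± SE (3 against 3 arrays, limma), and a gene was called at an adjusted p below 0.05.

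Over all 13393 genes, 34.1% were called in SUDHL2, 16.4% lower and 17.7% higher, with a median of 0.01. In SUDHL6, 26.9% were called, 13% lower and 13.9% higher, with a median of 0.02. The 3 OTX015 arrays lay wholly below the 3 DMSO arrays for 43 members in SUDHL2, against 21.5% of all genes, and for 38 members in SUDHL6, against 17.2%. Within single slides the members' median was -0.97 and -0.90 in SUDHL2, and -0.59 and -0.50 in SUDHL6. Whether the replicates were separate cultures is not stated in the labels, and each p-value speaks only of the spread among these arrays.

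**Figure D1:**
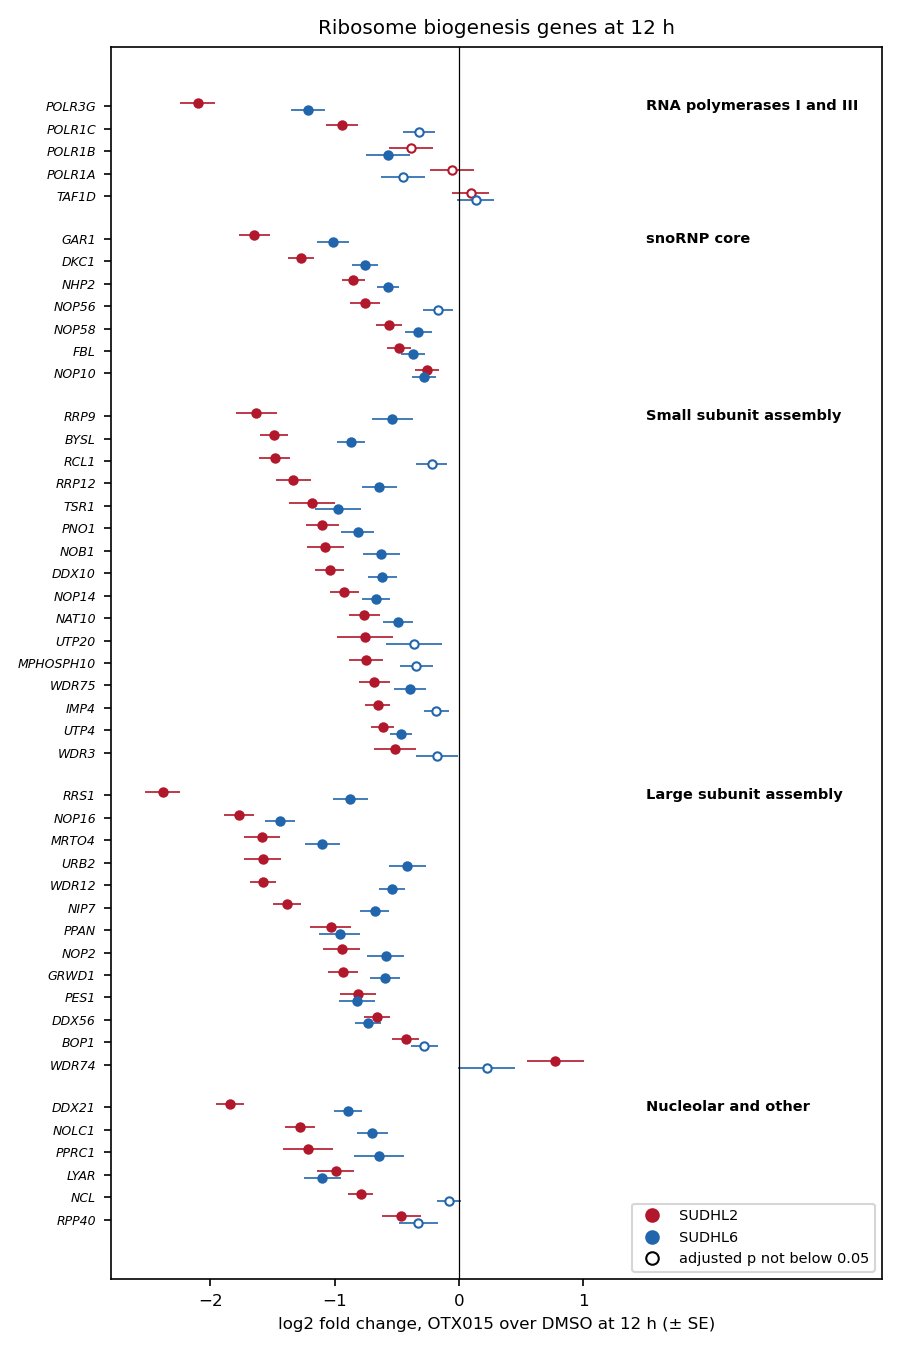
The log2 fold change of OTX015 against DMSO at 12 h (x axis, ± SE, 3 against 3 arrays) is drawn for the 47 tested members grouped by role (y axis), with SUDHL2 in red and SUDHL6 in blue and an open marker where the adjusted p was not below 0.05. Most points lie left of 0 in both lines, RRS1 and POLR3G reach furthest in SUDHL2 at -2.38 and -2.10, and WDR74 lies to the right at 0.78.

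Of the polymerase genes, 2 of 5 fell in each line, and POLR3G fell furthest. POLR3G encodes an RNA polymerase III subunit that a paralogue replaces in many differentiated cells. It read 6.87, 6.90 and 6.80 (log2 signal) on the SUDHL2 arrays with OTX015, against 8.96, 8.80 and 9.12 with DMSO. In SUDHL6 it read 7.27, 7.36 and 7.33 with OTX015, against 8.66, 8.35 and 8.59 with DMSO. The OTX015 arrays lay below all DMSO arrays in both lines, by -2.10 ± 0.14 (adjusted p = 1.4e-15) in SUDHL2 and -1.21 ± 0.14 (adjusted p = 5.5e-09) in SUDHL6. A dimmer probe of POLR3G gave -0.63 in SUDHL2 and -0.43 in SUDHL6.

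POLR1C, a subunit shared by RNA polymerases I and III, fell in SUDHL2, with 9.62, 9.33 and 9.69 with OTX015 and 10.34, 10.42 and 10.69 with DMSO (-0.94 ± 0.13, adjusted p = 1.5e-07). In SUDHL6 it read 10.54, 10.42 and 10.44 with OTX015 and 10.78, 10.85 and 10.74 with DMSO, a difference of -0.32 ± 0.13 that did not pass (adjusted p = 0.057) although the arrays did not overlap. With the experiment number as a block it passed in SUDHL6 (adjusted p = 0.034). It also passed there with the mean of its detected probes (0.014) and without background correction (0.048). The same held with the authors' values (0.047) and with the stricter filter on dim probes (0.046). POLR1B, the second-largest RNA polymerase I subunit, read 6.52, 6.03 and 6.21 with OTX015 and 7.04, 6.52 and 6.91 with DMSO in SUDHL6, where it fell by 0.57 ± 0.18 (adjusted p = 0.013) with 1 OTX015 array level with the lowest DMSO array. This call was lost without DMSO array 1 (adjusted p = 0.092) or 3 (0.052) or OTX015 array 2 (0.096).

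In SUDHL2 the POLR1B arrays read 5.74, 5.56 and 5.58 with OTX015 and 5.98, 5.70 and 6.34 with DMSO and overlapped (-0.38 ± 0.18, adjusted p = 0.093), and without DMSO array 2 the change passed (-0.54, adjusted p = 0.032). POLR1A, the largest RNA polymerase I subunit, did not pass in SUDHL2 (-0.06 ± 0.18, adjusted p = 0.85) or SUDHL6 (-0.45 ± 0.18, adjusted p = 0.054). The POLR1A probe was near background and was detected on 19 of the 42 time-course arrays. TAF1D, part of the factor that places RNA polymerase I on its promoter, read 7.73, 8.17 and 7.61 with OTX015 and 7.57, 7.74 and 7.93 with DMSO in SUDHL2, and 7.78, 7.52 and 7.62 with OTX015 and 7.64, 7.37 and 7.51 with DMSO in SUDHL6. Its arrays overlapped in both lines, at 0.09 ± 0.15 (adjusted p = 0.69) in SUDHL2 and 0.13 ± 0.15 (adjusted p = 0.57) in SUDHL6. In SUDHL2 the sign of this value turned with the scaling, to -0.023 when arrays were scaled to their 75th percentile.

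The snoRNP core proteins fell as a whole in SUDHL2 (7 of 7, median -0.76), and 6 of 7 fell in SUDHL6 (median -0.37). The H/ACA particle guides pseudouridine formation, and its proteins DKC1 (the enzyme), GAR1, NHP2 and NOP10 all passed in both lines. GAR1 read 9.32, 9.26 and 9.24 with OTX015 and 10.92, 11.10 and 10.74 with DMSO in SUDHL2, and 8.87, 8.74 and 8.87 with OTX015 and 9.51, 9.86 and 10.14 with DMSO in SUDHL6. Every OTX015 array lay below every DMSO array, at -1.64 ± 0.13 (adjusted p = 1.3e-13) in SUDHL2 and -1.01 ± 0.13 (adjusted p = 4.3e-08) in SUDHL6.

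DKC1 read 10.53, 10.67 and 10.77 with OTX015 and 11.80, 11.96 and 12.02 with DMSO in SUDHL2, and 10.55, 10.62 and 10.60 with OTX015 and 11.35, 11.21 and 11.46 with DMSO in SUDHL6. The groups were apart in both lines, by -1.27 ± 0.10 in SUDHL2 (adjusted p = 3.6e-13) and -0.75 ± 0.10 in SUDHL6 (adjusted p = 2e-07). NHP2 read 10.56, 10.49 and 10.67 with OTX015 and 11.41, 11.63 and 11.23 with DMSO in SUDHL2, and 10.85, 10.93 and 10.78 with OTX015 and 11.52, 11.42 and 11.34 with DMSO in SUDHL6. It too did not overlap, at -0.85 ± 0.09 (adjusted p = 7.1e-10) and -0.57 ± 0.09 (adjusted p = 4.8e-06).

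NOP10, the smallest H/ACA protein, moved least of the 4. It read 12.47, 12.24 and 12.59 with OTX015 and 12.59, 12.88 and 12.60 with DMSO in SUDHL2, groups that nearly touch (-0.26 ± 0.10, adjusted p = 0.039), and it fell by 0.28 ± 0.10 in SUDHL6 (adjusted p = 0.029). The call was lost without OTX015 array 1 or 2 or DMSO array 2 in SUDHL2, and without OTX015 array 2 or DMSO array 2 or 3 in SUDHL6. A second NOP10 probe passed in neither line, at -0.18 in SUDHL2 (adjusted p = 0.14 over all probes) and -0.21 in SUDHL6 (0.11). The box C/D particle guides 2′-O-methylation. Its methyltransferase FBL fell by 0.48 in SUDHL2 and 0.37 in SUDHL6, and the scaffold NOP58 by 0.56 and 0.33. NOP56, the partner of NOP58, fell by 0.76 in SUDHL2 and was at -0.17 in SUDHL6 (adjusted p = 0.35).

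All 16 tested small subunit factors fell in SUDHL2 (median -0.98), and 11 of 16 fell in SUDHL6 (median -0.51). RRP9, a protein of the U3 snoRNP that starts processing, read 5.78, 5.65 and 5.73 with OTX015 and 7.16, 7.46 and 7.41 with DMSO in SUDHL2. In SUDHL6 it read 6.02, 6.02 and 6.01 with OTX015 and 6.50, 6.44 and 6.71 with DMSO. Both sets were apart, at -1.63 ± 0.16 (adjusted p = 1.3e-10) and -0.54 ± 0.16 (adjusted p = 0.012), and the SUDHL6 call was lost without DMSO array 3 (adjusted p = 0.067).

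BYSL, which joins the late pre-40S particle, read 8.09, 8.01 and 7.97 with OTX015 and 9.43, 9.65 and 9.45 with DMSO in SUDHL2 (-1.49 ± 0.11, adjusted p = 6.8e-14). It read 9.44, 9.29 and 9.35 with OTX015 and 10.26, 10.22 and 10.19 with DMSO in SUDHL6 (-0.87 ± 0.11, adjusted p = 9.1e-08). Neither line had overlapping arrays. RCL1, a processome protein needed in yeast for an early cleavage, fell in SUDHL2, with 6.59, 6.59 and 6.69 with OTX015 and 7.85, 8.22 and 8.24 with DMSO (-1.48 ± 0.13, adjusted p = 2e-12). It did not pass in SUDHL6, with 7.21, 7.50 and 7.35 with OTX015 and 7.52, 7.58 and 7.61 with DMSO (-0.22 ± 0.13, adjusted p = 0.22).

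PNO1 and its partner NOB1, the endonuclease that makes the end of the mature small-subunit RNA, fell in both lines. PNO1 changed by -1.10 ± 0.13 in SUDHL2 (adjusted p = 7.1e-09) and -0.81 ± 0.13 in SUDHL6 (adjusted p = 4.8e-06), and NOB1 by -1.07 and -0.62. The maturation factors TSR1 (-1.18 and -0.97) and RRP12 (-1.33 and -0.64), the helicase DDX10 (-1.04 and -0.62), the RNA acetyltransferase NAT10 (-0.76 and -0.49) and the processome proteins UTP4 (-0.61 and -0.47), WDR75 (-0.68 and -0.39) and NOP14 (-0.92 and -0.67) also fell in SUDHL2 and SUDHL6. UTP20, WDR3, IMP4 and MPHOSPH10, processome proteins as well, fell in SUDHL2 by 0.76, 0.51, 0.65 and 0.75, and were at -0.36, -0.17, -0.18 and -0.34 in SUDHL6, where none passed. WDR3 was above background on no SUDHL2 array with OTX015, so its change there is at least 1.18-fold lower.

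Of the large subunit factors, 12 of 13 fell and 1 rose in SUDHL2 (median -1.03), and 11 of 13 fell in SUDHL6 (median -0.68). RRS1, which brings the 5S particle into the pre-60S subunit, had the lowest log2 fold change of all members. It read 6.89, 6.86 and 7.22 with OTX015 and 9.33, 9.59 and 9.20 with DMSO in SUDHL2 (-2.38 ± 0.14, adjusted p = 4.9e-17), and 8.48, 8.61 and 8.74 with OTX015 and 9.19, 9.51 and 9.75 with DMSO in SUDHL6 (-0.88 ± 0.14, adjusted p = 4.5e-06). The groups were apart in both lines.

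NOP16, a nucleolar pre-60S protein, had the lowest log2 fold change in SUDHL6. It read 8.24, 8.08 and 8.05 with OTX015 and 9.86, 10.03 and 9.79 with DMSO in SUDHL2 (-1.77 ± 0.12, adjusted p = 3.4e-15), and 8.64, 8.49 and 8.42 with OTX015 and 10.14, 9.84 and 9.89 with DMSO in SUDHL6 (-1.44 ± 0.12, adjusted p = 2.1e-12). MRTO4, which holds the place of the ribosomal stalk during assembly, read 7.78, 7.55 and 7.65 with OTX015 and 9.36, 9.19 and 9.18 with DMSO in SUDHL2, and 7.72, 7.96 and 7.89 with OTX015 and 8.88, 9.03 and 8.95 with DMSO in SUDHL6. No arrays of NOP16 or MRTO4 overlapped, and MRTO4 changed by -1.58 ± 0.14 (adjusted p = 9.2e-12) and -1.10 ± 0.14 (adjusted p = 9.4e-08).

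PES1, BOP1 and WDR12 form the PeBoW complex, which acts on the large-subunit precursor. PES1 changed by nearly the same amount in the lines. It read 7.16, 6.96 and 7.24 with OTX015 and 8.00, 7.87 and 7.92 with DMSO in SUDHL2 (-0.81 ± 0.14, adjusted p = 1.5e-05), and 7.80, 7.73 and 7.56 with OTX015 and 8.32, 8.64 and 8.59 with DMSO in SUDHL6 (-0.82 ± 0.14, adjusted p = 1.9e-05), with no overlap. WDR12 fell by 1.57 ± 0.10 in SUDHL2 and 0.54 ± 0.10 in SUDHL6. BOP1 fell by 0.43 in SUDHL2 (adjusted p = 0.0017) and was at -0.28 in SUDHL6 (adjusted p = 0.052).

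URB2, a pre-60S factor, read 6.96, 6.88 and 7.10 with OTX015 and 8.39, 8.55 and 8.73 with DMSO in SUDHL2, groups that were apart (-1.58 ± 0.15, adjusted p = 3.1e-11). Its SUDHL6 arrays overlapped, at 7.48, 7.52 and 7.98 with OTX015 and 7.67, 8.19 and 8.37 with DMSO (-0.42 ± 0.15, adjusted p = 0.035), and the call was lost with the slide as a block (adjusted p = 0.061), with 75th percentile scaling (0.10) and with each line alone (0.082). It was also lost without OTX015 array 1 or 2 or DMSO array 2 or 3, down to -0.27 (adjusted p = 0.25). NIP7 (-1.38 and -0.68), the RNA methyltransferase NOP2 (-0.94 and -0.59), the ribosomal protein chaperone GRWD1 (-0.93 and -0.59), PPAN (-1.03 and -0.96) and the helicase DDX56 (-0.66 and -0.73) fell in SUDHL2 and SUDHL6.

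WDR74, which works with the ATPase NVL on pre-60S particles, was the exception. It read 7.79, 7.81 and 7.38 with OTX015 and 7.18, 6.40 and 7.07 with DMSO in SUDHL2, with every OTX015 array above every DMSO array (0.78 ± 0.23, adjusted p = 0.0071). The second DMSO array is the low one, and without it the change was 0.53 and did not pass (adjusted p = 0.10). In SUDHL6 the arrays overlapped, at 8.11, 8.28 and 8.26 with OTX015 and 7.62, 7.97 and 8.38 with DMSO (0.22 ± 0.23, adjusted p = 0.54).

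All 6 tested nucleolar organisers, RNase P/MRP proteins and coactivators fell in SUDHL2 (median -1.10), and 4 of 6 fell in SUDHL6 (median -0.67). DDX21, a helicase that links RNA polymerase I transcription to processing, read 9.33, 9.59 and 9.65 with OTX015 and 11.11, 11.53 and 11.45 with DMSO in SUDHL2. In SUDHL6 it read 10.38, 10.50 and 10.52 with OTX015 and 11.22, 11.42 and 11.43 with DMSO. The groups were apart by -1.84 ± 0.12 in SUDHL2 (adjusted p = 4.1e-16) and -0.89 ± 0.12 in SUDHL6 (adjusted p = 8.5e-08).

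NOLC1, a chaperone of snoRNPs in the nucleolus, read 6.70, 6.72 and 6.83 with OTX015 and 8.02, 8.15 and 7.92 with DMSO in SUDHL2, and 8.32, 8.07 and 8.02 with OTX015 and 8.81, 8.95 and 8.74 with DMSO in SUDHL6. It was lower on every OTX015 array, by -1.28 ± 0.12 in SUDHL2 (adjusted p = 5.2e-11) and -0.70 ± 0.12 in SUDHL6 (adjusted p = 2.7e-05). NCL, the abundant nucleolar protein nucleolin, read 11.16, 11.22 and 11.27 with OTX015 and 12.07, 11.93 and 12.03 with DMSO in SUDHL2 (-0.79 ± 0.10, adjusted p = 2e-08). Its SUDHL6 arrays overlapped, at 11.93, 11.74 and 11.82 with OTX015 and 11.76, 11.89 and 12.07 with DMSO (-0.08 ± 0.10, adjusted p = 0.63). A second NCL probe gave -0.43 in SUDHL6 (adjusted p = 0.039 over all probes) and -0.68 in SUDHL2.

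PPRC1, a coactivator of the PGC-1 family, read 7.49, 7.39 and 7.35 with OTX015 and 8.84, 8.68 and 8.37 with DMSO in SUDHL2 (-1.21 ± 0.20, adjusted p = 4.6e-06). In SUDHL6 it read 8.92, 8.95 and 9.14 with OTX015 and 9.31, 9.76 and 9.86 with DMSO (-0.64 ± 0.20, adjusted p = 0.013), and the groups were apart in both lines. The SUDHL6 call was lost without DMSO array 2 (adjusted p = 0.054) or 3 (0.079). LYAR, a nucleolar zinc-finger protein, changed by -0.99 ± 0.15 in SUDHL2 and -1.10 ± 0.15 in SUDHL6. RPP40, a protein of RNase P and RNase MRP, fell by 0.46 in SUDHL2 (adjusted p = 0.017) and was at -0.33 in SUDHL6 (adjusted p = 0.12). The plot of array values for 8 members shows these groups beside all other hours.

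**Figure D2:**
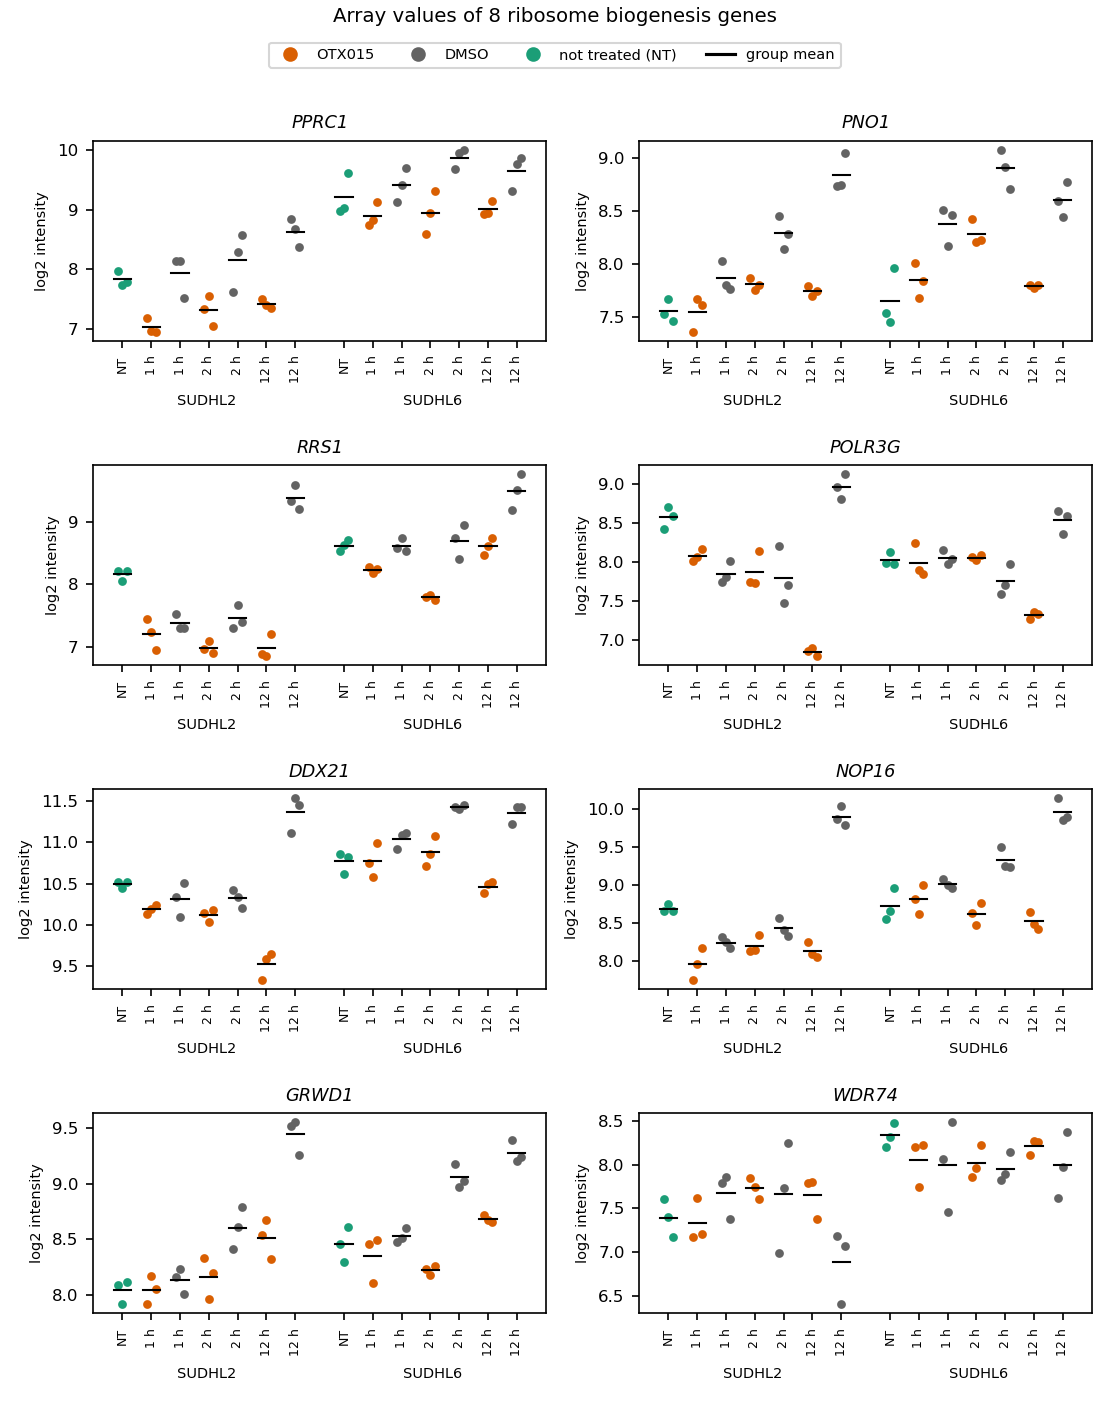
Log2 signal (y axis) of PPRC1, PNO1, RRS1, POLR3G, DDX21, NOP16, GRWD1 and WDR74 on each of the 42 time-course arrays, by line and treatment group (x axis), with 1 point per array. The SUDHL2 arrays with OTX015 at 12 h lie below those with DMSO for all of these genes but WDR74. For PPRC1, RRS1, POLR3G, DDX21 and NOP16 the untreated SUDHL2 mean lies between the OTX015 and the DMSO arrays.

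The earlier hours showed a few members each. At 1 h, 1 member, PPRC1, was lower in SUDHL2, where 0.142% of all genes were lower and 0.0523% higher. It read 7.18, 6.97 and 6.95 with OTX015 and 8.14, 8.13 and 7.51 with DMSO, apart on all arrays (-0.90 ± 0.20, adjusted p = 0.034), and the call was lost when OTX015 array 1, 2 or 3 or DMSO array 1 or 2 was left out. In SUDHL6, PNO1 was the 1 member lower at 1 h (-0.54 ± 0.13, adjusted p = 0.028), where 0.635% of genes were lower and 0.172% higher. It read 8.00, 7.68 and 7.84 with OTX015 and 8.51, 8.17 and 8.46 with DMSO, again with no overlap, and the call was lost without OTX015 array 2 or 3 or DMSO array 1 or 3.

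At 2 h, 4 members were lower in SUDHL2, where 2.48% of all genes were lower and 0.829% higher. In SUDHL6, 12 were lower, where 3.26% were lower and 2.76% higher, and no member was higher in either line. PPRC1, PNO1, GRWD1 and URB2 made up the 4 in SUDHL2. PPRC1 read 7.34, 7.54 and 7.04 with OTX015 and 7.62, 8.29 and 8.57 with DMSO (-0.85 ± 0.20, adjusted p = 0.0068), and URB2 7.05, 7.06 and 6.94 with OTX015 and 7.49, 7.66 and 7.77 with DMSO (-0.62 ± 0.15, adjusted p = 0.009). GRWD1 changed by -0.44 ± 0.12 (adjusted p = 0.029) and PNO1 by -0.49 ± 0.13 (adjusted p = 0.023), and neither PPRC1 nor URB2 had overlapping arrays. The count of 4 fell to 2 without OTX015 array 2 or DMSO array 3 and to 0 without OTX015 array 3, and PPRC1 and URB2 were lost without OTX015 array 3 or DMSO array 3.

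In SUDHL6 at 2 h the same 4 genes were among the 12. PPRC1 read 8.59, 8.95 and 9.31 with OTX015 and 9.68, 9.94 and 10 with DMSO (-0.92 ± 0.20, adjusted p = 0.0018). RRS1 read 7.80, 7.83 and 7.76 with OTX015 and 8.73, 8.41 and 8.94 with DMSO (-0.90 ± 0.14, adjusted p = 1.7e-05), and GRWD1 8.23, 8.18 and 8.26 with OTX015 and 9.18, 8.97 and 9.03 with DMSO (-0.83 ± 0.12, adjusted p = 5e-06). In all of these the OTX015 arrays lay below the DMSO arrays. URB2 (-0.75), BYSL (-0.71), NOP16 (-0.71), PPAN (-0.67), RPP40 (-0.64), PNO1 (-0.62), DDX21 (-0.54), RCL1 (-0.49) and POLR1C (-0.45) completed the 12. RCL1 was lost with 75th percentile scaling (adjusted p = 0.065) and without OTX015 array 1 or DMSO array 1. POLR1C was lost with 75th percentile scaling (0.19), with each line alone (0.054) and without OTX015 array 1 or 2 or DMSO array 3, where it was at -0.26 without the last of these (adjusted p = 0.30). Of all genes called in SUDHL6 at 2 h, 45.8% were higher, and 59.5% were when arrays were scaled to their 75th percentile.

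The response of each gene at 12 h was then set against its response at 2 h, each taken against DMSO of the same hour. In SUDHL2 it was lower at 12 h for 37 of 47 members (median -0.88), where 10.2% of all genes were lower. POLR3G (-2.18), RRS1 (-1.92), RRP9 (-1.83) and DDX21 (-1.64) had the lowest values. In SUDHL6 it was lower for 17 members (median -0.40), where 7.24% of genes were lower, led by POLR3G (-1.51 ± 0.20, adjusted p = 4e-07), DDX10 (-0.94) and LYAR (-0.89). Against the untreated level, the members' median with OTX015 was -0.20 at 2 h and -0.34 at 12 h in SUDHL2, and -0.04 and -0.02 in SUDHL6. With DMSO it was -0.15 and 0.54 in SUDHL2, and 0.13 and 0.52 in SUDHL6. Between these hours the DMSO median thus moved more than the OTX015 median in both lines.

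The hour at which the untreated arrays were taken is not given in the labels, and the DMSO arrays differed from them. At 12 h, 35 of 47 members were higher with DMSO than in untreated SUDHL2 and 34 were higher in SUDHL6, with none lower in either line and medians of 0.54 and 0.52. Over all genes, 12.1% were higher and 10.8% lower in SUDHL2, and 8.71% higher and 8.17% lower in SUDHL6. GRWD1 (1.40 ± 0.12, adjusted p = 9.5e-12), RRP12 (1.35), PNO1 (1.29) and RRP9 (1.23) rose most in SUDHL2, and RPP40 (1.34 ± 0.15, adjusted p = 4.2e-08), NOP16 (1.24), RRP12 (1.05) and LYAR (0.99) in SUDHL6.

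At the earlier hours the vehicle groups of the lines differed in direction. With DMSO, 9 members were lower and none higher in SUDHL2 at 1 h, where 2.61% of genes were lower and 3.53% higher, and 13 were lower and 2 (GRWD1 and PNO1) higher at 2 h, where 6.01% were lower and 7.97% higher. Of all genes called at 1 h, 57.5% were higher, and 42.5% were when arrays were scaled to their 75th percentile, where 18 members were lower. Without untreated array 2 the 9 became 5, and without untreated array 3 the 13 became 8. In SUDHL6, 2 members (NIP7 and PNO1) were higher and none lower at 1 h, where 1.33% of genes were higher and 0.455% lower, and 14 were higher and 2 (PPAN and DDX10) lower at 2 h, where 5.3% were higher and 6.41% lower. The 2 became 1 without DMSO array 1 or untreated array 3, and the 14 became 8 without untreated array 2.

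OTX015 was also set against the untreated arrays, a comparison that shares its OTX015 arrays with the one against DMSO and its untreated arrays across the hours. In SUDHL2 at 12 h, 26 members were lower than untreated and 2 (TAF1D at 0.40 and GRWD1 at 0.48) higher, with a median of -0.34, where 17.2% of all genes were lower and 19.2% higher. POLR3G (-1.71), WDR12 (-1.33), RRS1 (-1.17), GAR1 (-1.16) and DDX21 (-0.97) were lowest. In SUDHL6 at 12 h, 7 members were lower, TSR1 (-0.81), POLR3G (-0.71), NOB1 (-0.63), GAR1 (-0.48), FBL (-0.41), DDX21 (-0.30) and DKC1 (-0.29), where 14.6% of genes were lower. RPP40 (1.01), BOP1 (0.44) and RRP12 (0.41) were higher, where 16.3% of genes were, and the members' median was -0.02.

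RPP40 in SUDHL6, the highest of these, read 10.26, 10.32 and 10.79 with OTX015 at 12 h, 10.67, 10.87 and 10.81 with DMSO at 12 h, and 9.22, 9.36 and 9.77 not treated. Both 12 h groups lay above the untreated arrays and overlapped each other. RRS1 in SUDHL2 lay on both sides, with 6.89, 6.86 and 7.22 with OTX015 and 9.33, 9.59 and 9.20 with DMSO against 8.22, 8.05 and 8.21 not treated.

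At 1 and 2 h against untreated, 14 members were lower with OTX015 in SUDHL2 at each hour, and 1 (TAF1D) was higher at 2 h. Over all genes, 2.08% were lower and 2.76% higher at 1 h, and 5.53% lower and 6.65% higher at 2 h. The 14 at 1 h became 8, 7 and 7 without untreated array 1, 2 or 3 and 5 without OTX015 array 2, and the 14 at 2 h became 8 without OTX015 array 1. In SUDHL6, 2 members (PPAN and POLR1C) were lower at 1 h, where 0.986% of genes were lower and 1.1% higher, and 4 (PPAN, RRS1, BYSL and POLR1C) were lower and 2 (NIP7 and PNO1) higher at 2 h, where 5.62% were lower and 5.06% higher. The 2 at 1 h became 1 without untreated array 1 or 3 or OTX015 array 1 or 3, and 0 without OTX015 array 2. The course of all members is drawn in the plot of group means against the untreated level.

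**Figure D3:**
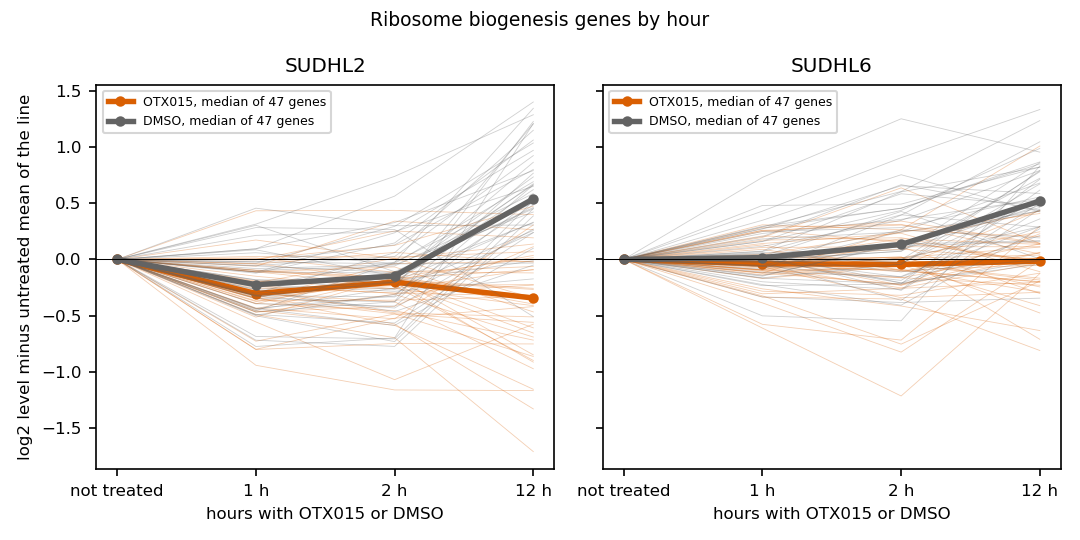
Group mean log2 signal minus the untreated mean of the same line (y axis) against the group (x axis: not treated, 1, 2 and 12 h), with a thin line per tested member and a thick line for their median, OTX015 in orange and DMSO in grey. The median with OTX015 at 12 h was -0.34 in SUDHL2 and -0.02 in SUDHL6, and the median with DMSO was 0.54 and 0.52.

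Whether the lines differed in their response was tested directly, as the SUDHL2 change minus the SUDHL6 change. At 12 h it was lower in SUDHL2 for 17 of 47 members and higher for none (median -0.35), where 12.4% of all genes differed, 6.21% in each direction. RRS1 (-1.51 ± 0.20, adjusted p = 3.8e-07), RCL1 (-1.26 ± 0.18, adjusted p = 2e-06) and URB2 (-1.16 ± 0.21, adjusted p = 0.00012) differed most. A second probe of URB2 gave changes closer together, -1.06 in SUDHL2 and -0.44 in SUDHL6. PES1 (0.01 ± 0.20), NOP10 (0.02 ± 0.14) and TAF1D (-0.04 ± 0.21) differed least, and an interval of about 2 SE around each value still allows a difference.

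At 1 h no member differed between the lines at the adjusted threshold, and 1 did at an unadjusted p below 0.05, against 4.48% of all genes. At 2 h none did, and 7 did unadjusted, against 7.88% of all genes. The share of all genes called at the adjusted threshold was 0.0448% at 1 h and 0.665% at 2 h. Across the 47 members the 12 h changes in the lines correlated at r = 0.71 and rho = 0.70, against 0.55 and 0.52 across all 13393 genes. These are correlations across genes, which are not independent, and the lines share no arrays. For 40 of 47 members the 12 h value was lower in SUDHL2, against 51.0% of all genes, and 33 were called lower in both lines, against 7.13% of all genes.

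**Figure D4:**
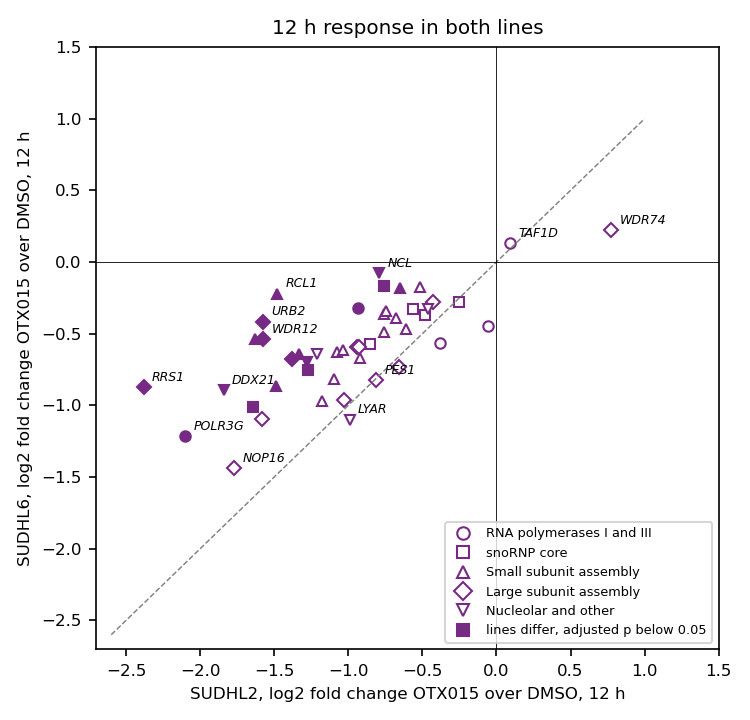
Log2 fold change of OTX015 against DMSO at 12 h in SUDHL2 (x axis) and in SUDHL6 (y axis), 1 point per tested member, with filled points for members whose change differed between the lines. Most points lie above the diagonal, that is lower in SUDHL2, with RRS1 at -2.38 and -0.88.

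MYC itself, no member of the list, moved differently in the lines. With OTX015 at 12 h it read 8.23, 7.83 and 8.37 in SUDHL2, against 11.65, 11.73 and 11.44 with DMSO and 10.22, 10.22 and 10.27 not treated. In SUDHL6 it read 10.39, 10.58 and 10.59 with OTX015, against 10.46, 11.19 and 11.42 with DMSO and 10.56, 10.61 and 10.42 not treated. The SUDHL2 groups were far apart (-3.46 ± 0.22 against DMSO, adjusted p = 5.1e-16), while the SUDHL6 groups overlapped (-0.50 ± 0.22, adjusted p = 0.092), and the difference between the lines was -2.96 ± 0.31 (adjusted p = 2.7e-09).

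Without the first DMSO array, the lowest of the 3, MYC was called in SUDHL6 (-0.78, adjusted p = 0.0098). It was also called there with the mean of its detected probes (-0.48, adjusted p = 0.041). At the earlier hours MYC was lower than with DMSO in SUDHL6 at 1 h (-1.35 ± 0.22, adjusted p = 0.00032) and 2 h (-1.21, adjusted p = 0.00018). In SUDHL2 it was at -0.55 at 1 h (adjusted p = 0.98) and lower at 2 h (-1.74, adjusted p = 6.7e-07). With DMSO against untreated it was at -1.14, -1.19 and 1.37 at 1, 2 and 12 h in SUDHL2.

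Members with and without CACGTG in their window were set side by side at 12 h. Of the 17 with it, 17 fell in SUDHL2 (median -0.94) and 14 in SUDHL6 (median -0.59). Of the 22 without it, 18 fell in SUDHL2 (median -0.89) and 14 in SUDHL6 (median -0.57). DDX21, GAR1, RRP9 and MRTO4, whose sites are printed above, had some of the lowest log2 fold changes in SUDHL2, but so had NOP16 and WDR12, whose windows hold none. Among tested genes that are no member, 22.8% of those with the hexamer and 15.9% of those without it were lower in SUDHL2, and 17.3% and 12.6% in SUDHL6. The counts and medians are descriptions without a test.

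Other genes of ribosome assembly were counted from a longer list, with 150 of 153 tested. The shares of all 13393 genes to read these lists against are 16.4% lower and 17.7% higher in SUDHL2 and 13% lower and 13.9% higher in SUDHL6. At 12 h, 91 were lower and 2 (TAF1B and NOP53) higher in SUDHL2 (median -0.48), and 63 were lower and 4 (GTF3C1, ZNHIT3, UTP3 and EXOSC6) higher in SUDHL6 (median -0.29). RPF2, which acts with RRS1, fell by 1.55 ± 0.14 in SUDHL2 (adjusted p = 2e-11) and 0.91 in SUDHL6. NLE1, a pre-60S factor, fell by 1.54 and 0.93, NOL6, a processome protein, by 1.48 and 0.61, and NPM3, a relative of NPM1, by 1.39 and 1.03. GTF3C6, a subunit of the RNA polymerase III factor TFIIIC, fell by 1.31 in SUDHL2 and by 2.48 ± 0.14 in SUDHL6 (adjusted p = 2.9e-17).

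The genes for the ribosomal proteins themselves were counted as well. Of 69 tested of 79 listed cytosolic ribosomal protein genes, 7 were lower and none higher in each line, with a median of -0.04 in both, where 16.4% of all genes were lower in SUDHL2 and 13% in SUDHL6. Of 19 polyamine and nucleotide synthesis genes, 16 were lower and 1 higher in SUDHL2 (median -0.61), and 9 lower and none higher in SUDHL6 (median -0.37).

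Without treatment, the members did not lie on one side between the lines. In SUDHL2, 17 members were lower than in SUDHL6 and 11 were higher (median -0.10), where 25.4% of all genes were lower and 27.1% higher. PPRC1 (-1.37), RRP12 (-1.12), IMP4 (-1.05) and POLR1B (-0.99) were lowest. GAR1 (1.13), LYAR (0.88), NOP10 (0.86), DDX10 (0.86) and RPP40 (0.79) were highest. Scaling to the 75th percentile shifted the median of all genes in this comparison by -0.10, with 15 members lower and 12 higher.

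In the panel, each line has 1 array, so its levels carry no replicate error. The median deviation of the members from their panel medians was highest in SU-DHL-6 (0.47, with 40 of 47 members above the panel median), SU-DHL-10 (0.42, 41 members) and SU-DHL-2 (0.33, 36 members). It was lowest in Karpas-422 (-0.89, 3 members above), SU-DHL-4 (-0.72, 4 members) and OCI-Ly3 (-0.36, 7 members). SU-DHL-6, SU-DHL-10, SU-DHL-2 and SU-DHL-4 shared a slide. The ranking holds for these single arrays. The untreated time-course means lay below the panel array for all members but NOP10 and FBL in SUDHL2. In SUDHL6 the exceptions were IMP4, TAF1D, NOB1 and WDR74. RRS1 read 9.91 on the SU-DHL-6 panel array and 8.62 untreated in the time course, with a panel median of 8.68. PNO1 read 8.58 on the SU-DHL-2 panel array and 7.55 untreated, with a panel median of 8.03. The cause was not tested. The processed column that the authors deposited for Karpas-422 matched another array better than its own, the 1 such case of 64.

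The widest span over the 22 lines among members was that of POLR3G, from 6.56 in SU-DHL-7 to 9.87 in SU-DHL-10, followed by NOLC1 at 6.17 to 9.20. FBL stayed within 10.76 to 11.86. The median SD over lines was 0.50 for the members and 0.44 for all genes. MYC ranged from 8.58 in U-2932 to 12.1 in OCI-Ly19, and its correlation with the members' median deviation was r = 0.32 and rho = 0.36 over 22 lines, 0.37 without U-2932 and OCI-Ly19 and 0.28 without Karpas-422. It was 0.15 when Karpas-422, U-2932 and OCI-Ly19 were all left out. With the authors' values r was 0.25, and 0.15 without U-2932 and VAL. Taken gene by gene, 42 of 47 members correlated above 0 with MYC (median r = 0.21), against 51.7% of all genes (median r = 0.01), where all points share the same 22 arrays.

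**Figure D5:**
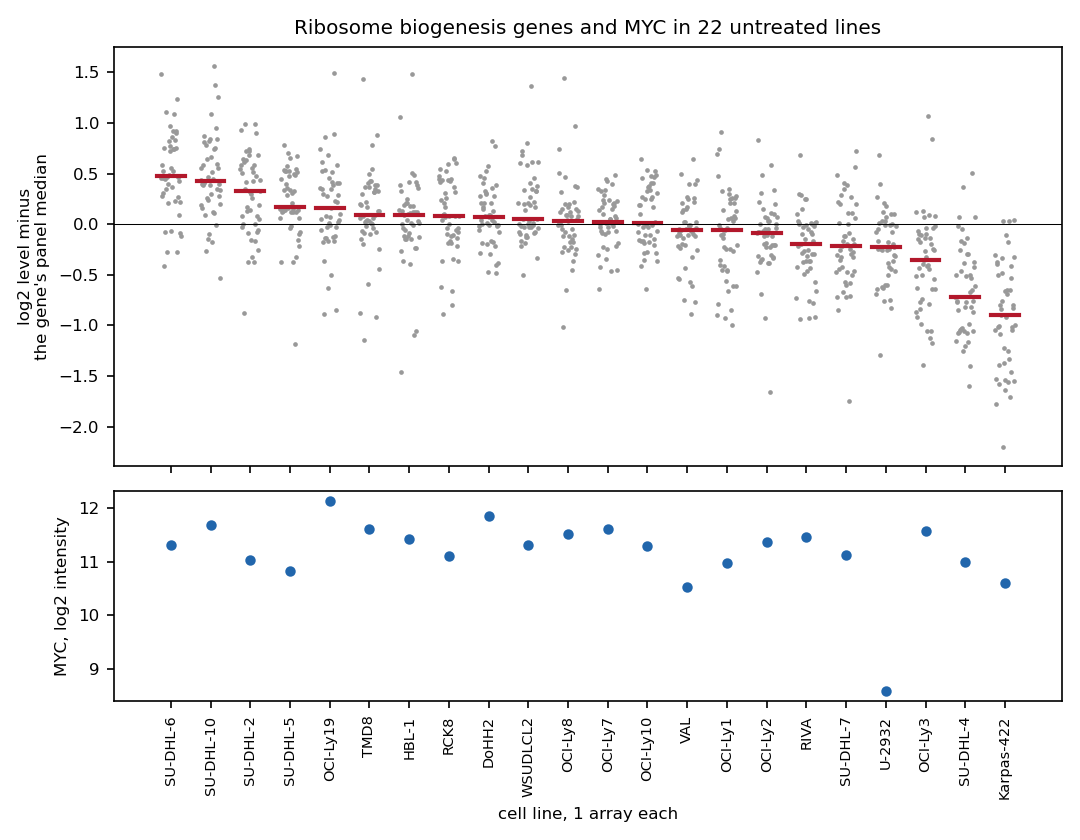
Deviation of each tested member's log2 signal from its panel median (upper y axis, dots) with the median over members (red bar), and the MYC log2 signal (lower y axis), for 22 lines with 1 array each (x axis). The members' median runs from 0.47 in SU-DHL-6 to -0.89 in Karpas-422, while the lowest MYC signal, 8.58, is that of U-2932.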

How the data were processed

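Total RNA was extracted with the RNeasy kit and labelled with biotin through the Ambion TotalPrep kit, per the labels. The deposited signal table holds 1 linear intensity per probe and array, with no background subtraction or scaling between arrays, as the values show. The authors' processed table holds log2 values with array medians of 6.64 (time course) and 6.74 (panel), and its making is not described in those sources. It served as an alternative.

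Intensities were corrected with normexp (offset 16), quantile normalized over 64 arrays and put on the log2 scale with limma 3.58.1 in R 4.3.3. The signal table gave no detection p-values, so background was modelled by reflecting the values below each array's mode, and a probe was kept at p below 0.01 on at least 3 of the 42 time-course arrays. Of 47231 probes, 30113 had 1 gene symbol in the platform annotation, 8 had several and 17110 had none. Each gene was read through its brightest kept probe, which gave 13393 genes. Of all probes, 34.0 to 42.0% were detected per time-course array and 36.9 to 47.4% per panel array, and the number of arrays limits the precision.

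A mean per group was fitted over the 14 groups with lmFit and eBayes (intensity trend, 28 residual degrees of freedom). The 24 contrasts were tested 2-sided with Benjamini-Hochberg adjustment over all genes at 0.05. Full array values are given for the 3 members of each role with the largest 12 h change, for members called against the majority and for the 3 largest and 3 smallest line differences, and further members are named where a count is small. PNO1 and GRWD1 at the early hours and RPP40 were chosen after their values were seen. The members and lists were chosen with earlier results of these data known. The panel and the promoter windows (300 bases) carry no test.

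Same-numbered experiments deviated together in SUDHL6, where all 9 correlations between OTX015 and DMSO arrays of one number were above 0.1 (0.12 to 0.44), and not in SUDHL2. The number as a block, the slide as a block, other background, scaling, filter and probe rules, each line alone and each array left out were tried as alternatives. Tables were read with Python 3.11.15 and pandas 2.3.3, and figures drawn with matplotlib 3.10.9.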

Additional observations from a re-analysis of the deposited data

Results flagged for a closer look

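At 12 h the response to OTX015 (OTX015 minus DMSO) differed between SUDHL2 and SUDHL6 in limma's test of the difference itself for 17 members, and each value below is the SUDHL2 change minus the SUDHL6 change on the log2 scale, at an adjusted p below 0.05. In the large subunit factors the difference was -1.51 for RRS1, -1.16 for URB2, -1.04 for WDR12 and -0.70 for NIP7. In the small subunit factors it was -1.26 for RCL1, -1.09 for RRP9, -0.69 for RRP12, -0.62 for BYSL and -0.47 for IMP4. The polymerase subunits POLR3G and POLR1C differed by -0.89 and -0.61, and the snoRNP proteins GAR1, NOP56 and DKC1 by -0.63, -0.59 and -0.52. DDX21, NCL and NOLC1 differed by -0.95, -0.71 and -0.58. These values hold for the probe reported. A second probe gave changes closer together in SUDHL2 and SUDHL6 for POLR3G (-0.63 and -0.43) and NCL (-0.68 and -0.43). The same held for URB2 (-1.06 and -0.44) and POLR1C (-0.81 and -0.35). It also held for the other probes of GAR1 (-1.19 and -0.68, -1.55 and -1.13, -1.38 and -0.84). For NOP56 a probe gave -0.64 and -0.25, closer together, and another gave -0.92 and -0.27, further apart. For WDR12 the second probe gave -1.71 and -0.47, further apart than the probe reported. NOP56, IMP4, RRP12, WDR12, NIP7 and NCL were not recomputed singly with 1 array left out, so whether their calls hold was not tested. Of the members recomputed in this way, 4 lost the call. DKC1 was lost without SUDHL2 OTX015 array 1 (adjusted p = 0.052), GAR1 without SUDHL2 DMSO array 2 (0.060) or SUDHL6 DMSO array 1 (0.087), and POLR1C without SUDHL2 OTX015 array 2 (0.080) or DMSO array 3 (0.081). NOLC1 was lost without SUDHL2 OTX015 array 1 or DMSO array 2 or SUDHL6 OTX015 array 1 or DMSO array 3 (0.053 to 0.083).

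Outside the list, NOL6 differed by -0.88, RPF2 by -0.64 and MYC by -2.96. The RPF2 call was lost without SUDHL2 OTX015 array 2 or 3 or DMSO array 1 or 2, and without SUDHL6 OTX015 array 1 or DMSO array 2 or 3 (adjusted p = 0.052 to 0.11). GTF3C6 differed the other way, by 1.17, since it was lower in SUDHL6. Without treatment, 25.4% of all genes were lower and 27.1% higher in SUDHL2 than in SUDHL6, and the part of these basal differences in the responses was not tested.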

How the results depend on the processing

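Over the processing alternatives, the members lower with OTX015 than DMSO at 12 h numbered 41 to 43 in SUDHL2 and 34 to 38 in SUDHL6, and 16 to 19 differed between the lines. The medians at 12 h moved to -0.77 without background correction, -0.86 at offset 50, -1.10 with 75th percentile scaling and -0.78 with the authors' values in SUDHL2, and to -0.49 and -0.47 without background correction and with the authors' values in SUDHL6. The 1 member at 1 h in SUDHL2 became 0 without background correction, at offset 50, with 75th percentile scaling and with the authors' values. The 4 at 2 h became 7 with the stricter filter on dim probes, and the 9 lower with DMSO at 1 h became 18 with 75th percentile scaling. In SUDHL6 at 1 h the 1 member became 2 with the mean of a gene's probes and 0 with each line alone, and the 2 lower than untreated became 1 with each line alone. TAF1D at 12 h in SUDHL2 turned to -0.023 with 75th percentile scaling, and over arrays left out one at a time it ranged from -0.074 (without OTX015 replicate 2) to 0.21. NOP10 lost its 12 h call in SUDHL2 with 75th percentile scaling (adjusted p = 0.31), with no filter (0.062) and with each line alone (0.060). NOLC1 lost its line difference without background correction (adjusted p = 0.10), at offset 50 (0.052) and with the authors' values (0.14), and DKC1 with 75th percentile scaling (0.074). The causes were not tested. Of the recomputed values of named genes, 1412 kept direction and side of the threshold, 64 lost a call, 8 gained one and 2 changed sign.

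The replicate block (experiment number) gave 38 members lower in SUDHL6 at 12 h, 14 at 2 h and 1 at 1 h, and changed no count there by more than 1.5 times. In SUDHL2, where the numbers did not pair the samples, it gave 43 at 12 h, 7 at 2 h and 1 at 1 h. Of 18 same-number pairs in both lines, 11 correlated above 0.1 and 10 correlated best with their own number, with r from -0.28 to 0.44.

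Leaving out 1 array at a time, the counts of members lower with OTX015 than DMSO ranged over 0 to 1, 0 to 4 and 41 to 43 at 1, 2 and 12 h in SUDHL2 and over 0 to 1, 9 to 12 and 27 to 35 in SUDHL6, and the line difference at 12 h over 14 to 17. With DMSO against untreated, SUDHL2 ranged over 5 to 10 and 8 to 11 lower at 1 and 2 h, and SUDHL6 over 1 to 2 and 8 to 15 higher. With OTX015 against untreated, SUDHL2 ranged over 5 to 10 and 8 to 11 lower at 1 and 2 h, and SUDHL6 over 0 to 2 at 1 h. With 3 arrays a group and signals of some members near background (WDR3, POLR1A and UTP20), small changes are not resolved.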

Other observations

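Of 17 members with several detected probes, none had a probe of opposite sign at 12 h in SUDHL2 and 1, TAF1D, did in SUDHL6. Probes of one gene differed in size: beside the probe reported, a second probe gave -0.39 (adjusted p = 0.085 over all probes) and -0.16 for TSR1 in SUDHL2 and SUDHL6, -0.25 and -0.11 for MPHOSPH10, -0.63 and -0.43 for POLR3G, and -0.68 and -0.43 for NCL. Of the factors that share the partner MAX with MYC, 3 were higher with OTX015 at 12 h, MXD1 by 0.57 in SUDHL2 and 0.81 in SUDHL6, MXD3 by 1.46 and 0.73, and MXD4 by 2.06 and 0.89. MXI1 (0.03 and 0.16), MNT (0.05 and 0.17) and MGA (-0.12 and 0.24) did not pass in SUDHL2 or SUDHL6. The reference genes ACTB (0.06 and -0.29), GAPDH (-0.01 and 0.02) and PPIA (-0.01 and 0.12) did not pass in SUDHL2 or SUDHL6, while SDHA rose by 0.69 and 0.57 and GUSB by 0.50 and 0.48. At 12 h the members' median lay at -0.44 to -0.34 of the untreated level on the 3 SUDHL2 arrays with OTX015, against 0.54 to 0.63 with DMSO.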
